A study of Mus musculus with 2 samples.

Results

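*Cd209a*-expressing dendritic cells of acutely injured quadriceps were selected on measured values, cell by cell, from the libraries of day 1 and day 3 post injury. A cell was taken when at least 0.5% of its UMIs (unique molecular identifiers, 1 per counted RNA molecule) came from *Cd74* and the MHC class II genes *H2-Eb1*, *H2-Ab1* and *H2-Aa* together and when it held at least 1 UMI of *Cd209a*. Cells with at least 2 UMIs of both *Ccr7* and *Fscn1*, the pair that marks migratory dendritic cells, were left out. This gave 214 of the 11362 cells kept in both libraries, 77 of 6735 on day 1 and 137 of 4627 on day 3. The muscle came from male wild-type (WT) C57BL/6J mice, 14 weeks old, whose right quadriceps had been injected with 100 µL of 1.2% BaCl2, a salt that kills myofibers. Both days share strain, sex, age and agent and differ by the time since injury. Each day is 1 library of cells pooled from 5 mice, digested with enzymes, sorted by light scatter and frozen before loading, so no difference could be tested and no p-value appears. Uninjured muscle was not analysed here.

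Conventional dendritic cells take up antigen in tissue and present its peptides on MHC class II to CD4 T cells. The lineage divides into a cross-presenting branch, type 1, and a branch that serves mainly CD4 T cells, type 2. Under inflammation, monocytes can also take on MHC class II and dendritic features. *Cd209a* encodes a C-type lectin, mouse DC-SIGN, and lies at chr8:3743397-3748984 on the minus strand (GRCm38/mm10). *Klrd1*, at chr6:129591782-129598775 on the plus strand, encodes CD94, a lectin-like receptor best known from NK cells.

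MHC class II transcription is switched on by the coactivator CIITA, which docks on factors bound to short promoter elements, among them a Y box that holds an inverted CCAAT. The motif TGATTGG, the core of that box, was searched on both strands of the RefSeq promoters (GRCm38.p6), from 250 bases before to 50 after each start. It was found in 6 of the 10 genes of class II and its peptide handling that have a promoter in that table. It was absent from the class II gene *H2-DMa* and from the peptide handling genes *Ctss*, *Ifi30* and *Lgmn*. Of all 32851 promoters, 2568 (7.82%) hold the motif. The windows of 30 bases around it are shown in the direction of transcription because genes of the rule (*H2-Aa*, *H2-Eb1*) and genes outside the rule (*H2-DMb1*, *H2-DMb2*, *H2-Oa*, *H2-Ob*) share it, with the motif in capitals.
H2-Aa, chr17:34287856-34287885, minus strand: aagagaattttcTGATTGGttctggcgagt
H2-Eb1, chr17:34305794-34305823, plus strand: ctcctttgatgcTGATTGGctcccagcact
H2-DMb1, chr17:34153116-34153145, plus strand: tgattcactcagTGATTGGtctgacctgcc
H2-DMb2, chr17:34145145-34145174, plus strand: taagtcacttagTGATTGGactgacttaac
H2-Oa, chr17:34092322-34092351, plus strand: agagaactgctcTGATTGGctgcttaccgc
H2-Ob, chr17:34238834-34238863, plus strand: agtcttcgctctTGATTGGttaacagtgtg
The motif begins between 45 bases (*H2-Oa*) and 92 bases (*H2-DMb2*) before the start. A match is a description of the letters, and no binding was measured.

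The libraries held 74852240 UMIs on day 1 and 102565783 on day 3. Kept cells had median depths of 9389 and 14548 UMIs, and the members had medians of 12820 (from 1863 to 78608) and 8599 (from 3062 to 50266). The mitochondrial limit removed 517 called cells on day 1 and 2013 on day 3. The lists of possible barcodes hold 737280 and 6794880 entries, so library chemistry may differ and cannot be told apart from the day. No kept cell shared its barcode with a cell of the other library. Levels are in CPM, the UMIs of a gene per 1000000 UMIs of the same pooled cells. Parentheses hold 95% confidence limits, by the exact Poisson method for levels, by Clopper-Pearson for shares of cells and by the exact binomial method for ratios. They cover counting error only, and neither the mice nor the libraries are replicated.

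The members made up 1.143% (0.9033 to 1.427) of the kept cells on day 1 and 2.961% (2.492 to 3.491) on day 3. Among all cells that passed the class II limit they were 77 of 478, or 16.11% (12.93 to 19.72), and 137 of 474, or 28.9% (24.86 to 33.21). The day 1 share is the one that moved with the call of cells. It was 1.519% when barcodes were called by 10% of the 99th percentile of UMIs, and day 3 was then at 2.899%. With each kept cell thinned to 3000 UMIs before the rule was applied, the shares were 1.108% and 2.474%.

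The genes of the rule describe how the members were chosen and are no finding. *Cd209a* ranged from 1 to 68 UMIs per cell with a median of 6 on day 1, and from 1 to 53 with a median of 7 on day 3, and its summed level was 802.3 and 824 CPM. The class II sum took from 0.6102% to 14.76% of a cell's UMIs on day 1 with a median of 4.542%, and from 0.5564% to 11.15% on day 3 with a median of 5.213%. Of the *Cd209a* UMIs in kept cells, 86.06% on day 1 and 97.17% on day 3 lay in members, a share that the rule favours. Only 15 members of day 1 and 23 of day 3 held exactly 1 *Cd209a* UMI. In these, just inside the limit, *Klrd1* was at 171.7 and 175.7 CPM and the complement gene *C1qa* at 1119 and 740.1 CPM. Just outside, 394 and 334 class II cells with no *Cd209a* UMI had *Klrd1* at 24.54 and 33.58 CPM and *C1qa* at 687.7 and 916.4 CPM. Members with a class II sum between 0.5% and 1% numbered 7 and 10, with *Klrd1* at 163 and 160 CPM. Cells with *Cd209a* and a sum between 0.25% and 0.5% numbered 8 and 3, with *Klrd1* at 56.44 and 14.43 CPM. No cell with *Cd209a* was lost to the *Ccr7* and *Fscn1* limit.

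*Klrd1*, a marker given with the cells but not used by the rule, was the gene with the highest smaller ratio of members over all other kept cells among 10657 genes ranked. At least 1 *Klrd1* UMI was present in 47 of 77 members on day 1, or 61.04% (49.25 to 71.95), and in 109 of 137 on day 3, or 79.56%. After thinning to 3000 UMIs these shares were 37.84% and 59.85%. In fibroblasts, gated on collagen genes and decorin and free of *Ptprc*, 0 of 120 and 1 of 537 cells (0.1862%) held a *Klrd1* UMI at median depths of 22110 and 22797 UMIs, so the share in members lies far above this background. The level was 239.1 CPM on day 1 and 395.4 CPM on day 3, a log2 ratio of 0.72 (0.52 to 0.93). The members, at most 2.961% of the kept cells, held 60.39% and 72.33% of the *Klrd1* UMIs in kept cells. The chosen cells thus carried the given marker on both days, but 30 members of day 1 and 28 of day 3 had no *Klrd1* UMI at their depth. Because *Klrd1* was given with the cells, these values describe them and are no independent check of their name.

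**Figure D1:**
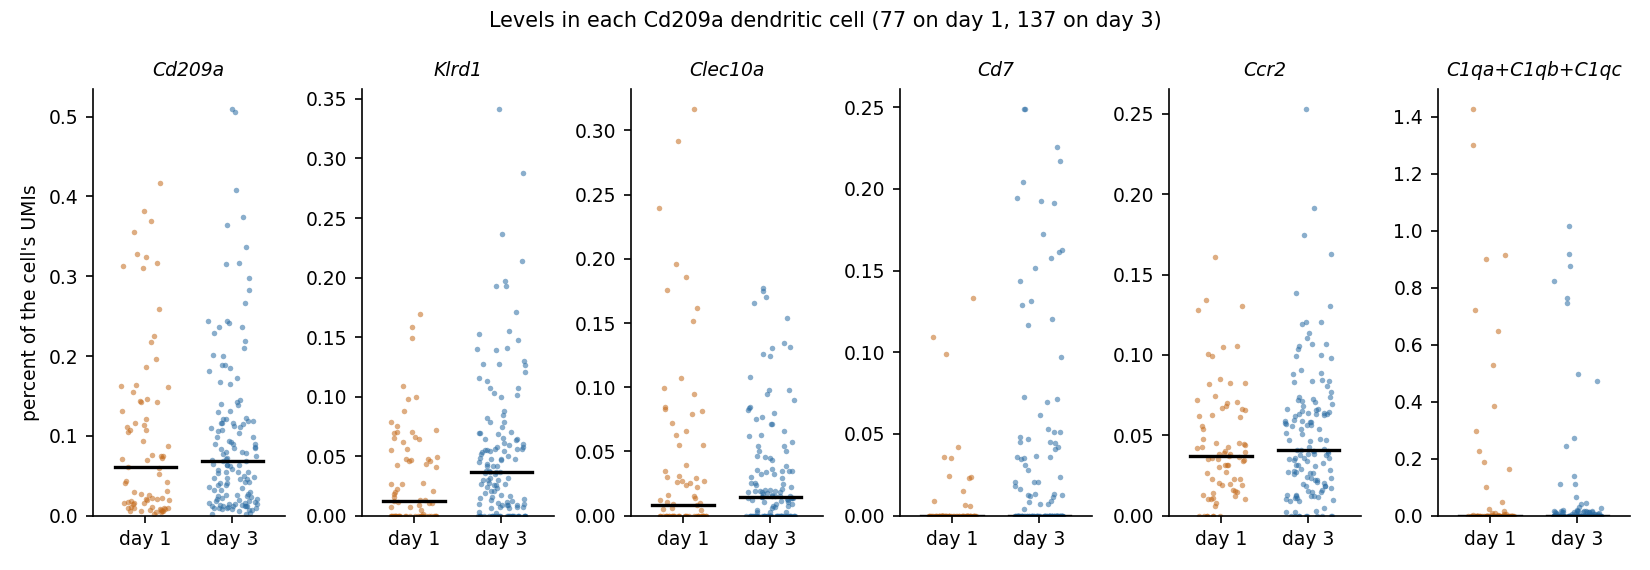
Share of each member's UMIs, in percent, taken by *Cd209a*, *Klrd1*, *Clec10a*, *Cd7*, *Ccr2* and the sum of *C1qa*, *C1qb* and *C1qc*, with 1 point per cell on day 1 (77 cells) and day 3 (137 cells) and the median as a black line. *Cd209a* is used by the rule and is above 0 by construction. The points of *Klrd1* and *Cd7* reach higher on day 3, while the C1q sum is at 0 in most cells of both days and above 0.1% in 13 cells of each.

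The markers of other lymphoid cells were near 0. Of the 11 NK and cytotoxic genes listed, 7 had no UMI in any member, among them *Ncr1*, *Nkg7*, *Gzma*, *Gzmb*, *Prf1*, *Klrb1c* and *Eomes*. *Klrk1*, which encodes the receptor NKG2D, was present at 54.59 and 43.05 CPM, and *Klre1* at 3.466 and 6.764 CPM. The 9 T cell genes summed to 0 CPM on day 1 and 3.075 CPM on day 3, and the 7 B cell genes to 0 and 4.305 CPM. A floor of 3 counts over the group stands at 2.599 CPM on day 1 and 1.845 CPM on day 3. The defining genes of type 1 dendritic cells, the chemokine receptor *Xcr1* and the lectin *Clec9a*, had 1 UMI each on each day.

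Genes of type 2 dendritic cells were present in many but not all members. *Clec10a*, which encodes the galactose lectin CD301a, was at 341.4 CPM (308.5 to 376.8) on day 1 and 257 CPM (233 to 282.9) on day 3, with a UMI in 54.55% and 64.96% of cells. Its neighbour and close relative *Mgl2*, CD301b, was at 256.5 and 148.2 CPM, with a UMI in 37.66% and 24.09% of cells. Reads that fit both relatives could be placed on either, and the same holds for the *Cd209* family. *Napsa*, which encodes an aspartic protease found in these cells, was at 506 and 493.8 CPM in more than 90% of cells. *Itgax*, the integrin CD11c, was at 71.05 CPM on day 1 and 124.2 CPM on day 3. The transcription factors *Irf4* (10.4 and 20.29 CPM) and *Zbtb46* (9.531 and 17.22 CPM) stayed below the minimum of 50 UMIs over both days that a ratio required here. *Klrd1* and *Clec10a* were found in the same cell in 34 members of day 1 and 72 of day 3, *Klrd1* alone in 13 and 37, and *Clec10a* alone in 8 and 17.

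The members were set beside 3 other groups of the same library: class II cells without *Cd209a* in which C1q genes took at least 0.1% of UMIs (C1q macrophages, 160 and 141 cells), *Plac8* *Ly6c2* monocytes below the class II limit (521 and 700 cells), and all other kept cells (6658 and 4490). Genes that define a gate are not read. A gene counts as higher or lower here when its CPM differed at least 2-fold in the same direction in both libraries. The contrast with other class II cells does not follow from the class II part of the rule, but every member holds *Cd209a* and no C1q macrophage does, so these values describe the cells as chosen and are not tested. Against C1q macrophages, 1.63% of 5229 genes were higher in members and 2.29% lower.

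Peptide loading genes stood above the C1q macrophages. The genes of the rule themselves took 4.237% of UMIs in members against 1.851% in C1q macrophages on day 1 and 4.215% against 1.511% on day 3, although both groups passed the same limit. Of 7 genes of this machinery outside the rule with enough UMIs, 4 were higher and 1 was lower. *H2-DMb2*, a chain of the peptide exchange factor H2-M, was at 87.51 CPM in members against 1.426 CPM in C1q macrophages on day 1, and at 80.56 against 2.043 CPM on day 3. *H2-DMb1*, the other copy of that chain, had log2 ratios of 2.12 and 1.54, and the partner chain *H2-DMa* 1.96 and 1.35. *Ciita*, the coactivator named above, had 2.74 and 1.73. *Lgmn*, an endolysosomal protease, was the lower one, with -1.41 and -1.31. The *H2-DMb1* and *H2-DMb2* copies are similar in sequence, so their split is uncertain.

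*Klrd1* was at 0.4754 and 5.108 CPM in C1q macrophages, where 1 of 160 cells (0.625%) and 6 of 141 (4.255%) held a UMI at median depths of 11783 and 12158 UMIs. *Gpr171*, a G protein-coupled receptor, had log2 ratios of members over C1q macrophages of 6.2 and 4.08, *Ifitm1* of 3.82 and 5.48, and *Itgb7*, an integrin chain of gut-homing leukocytes, of 2.23 and 2.69. Macrophage genes were lower in members, a side that the gates favour because the other group was chosen by its C1q genes. Of 8 with enough UMIs, 5 were lower and 0 higher, and of 12 lipid and scavenging genes 8 were lower and 0 higher. *Trem2*, a lipid receptor, had ratios of -2.32 and -2.05, and *Apoe*, a lipid carrier, -1.98 and -1.62. Beside cells chosen by C1q, the members thus combined higher peptide loading genes with lower macrophage genes in both libraries.

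Leaving out the genes that set the groups, 4 migratory and maturation genes had enough UMIs for this contrast, of which 0 were at least 2-fold higher and 0 lower in both libraries, with median log2 ratios of -0.11 and 0.76. The same counts held for the 14 NF-kB and immediate early genes, with medians of -0.68 and 0.06. The next 3 genes belong to different lists and were picked after their values were seen, for the gap between their ratios on the 2 days. *Il1b*, the cytokine interleukin-1 beta, had a log2 ratio of -0.71 on day 1 and 1.58 on day 3. *Cd83*, which stabilises class II at the surface, had -0.1 and 1.3. *Nr4a3*, an immediate early nuclear receptor, had -0.11 and 2.88. *Il1r2*, the decoy receptor for interleukin-1, was higher on both days, with 1.9 and 3.52, as was *Ccr7*, with 2.4 and 3.93. *Ccr7* is part of the limit that removed migratory cells, and 1 member of day 1 held 39.02% of its UMIs there.

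Against *Plac8* *Ly6c2* monocytes, 1.41% of 7614 genes were higher in members and 3.27% lower. Of 7 class II machinery genes outside the rule 5 were higher and 0 lower, a side that the gates favour because the monocytes were kept under the class II limit. *Klrd1* had log2 ratios of 5.54 and 6.41 and was found in 1.727% and 2% of the monocytes. *Itgax* had 2.29 and 3.63. *Mgl2* was at 256.5 CPM against 0.137 CPM on day 1, where the monocytes held 1 UMI, and at 148.2 against 1.697 CPM on day 3. *F13a1*, a coagulation factor chain of monocytes, was lower with -2.12 and -2.69, and *Lyz2*, lysozyme, with -1.94 and -1.54. Of 11 type I interferon response genes 4 were lower in members and 0 higher, among them *Isg15* with -2.19 and -1.03 and *Rsad2* with -2.95 and -1.23. *Ccr2*, the receptor by which monocytes enter injured muscle, was nearly level, at 406.4 and 471 CPM in members.

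**Figure D2:**
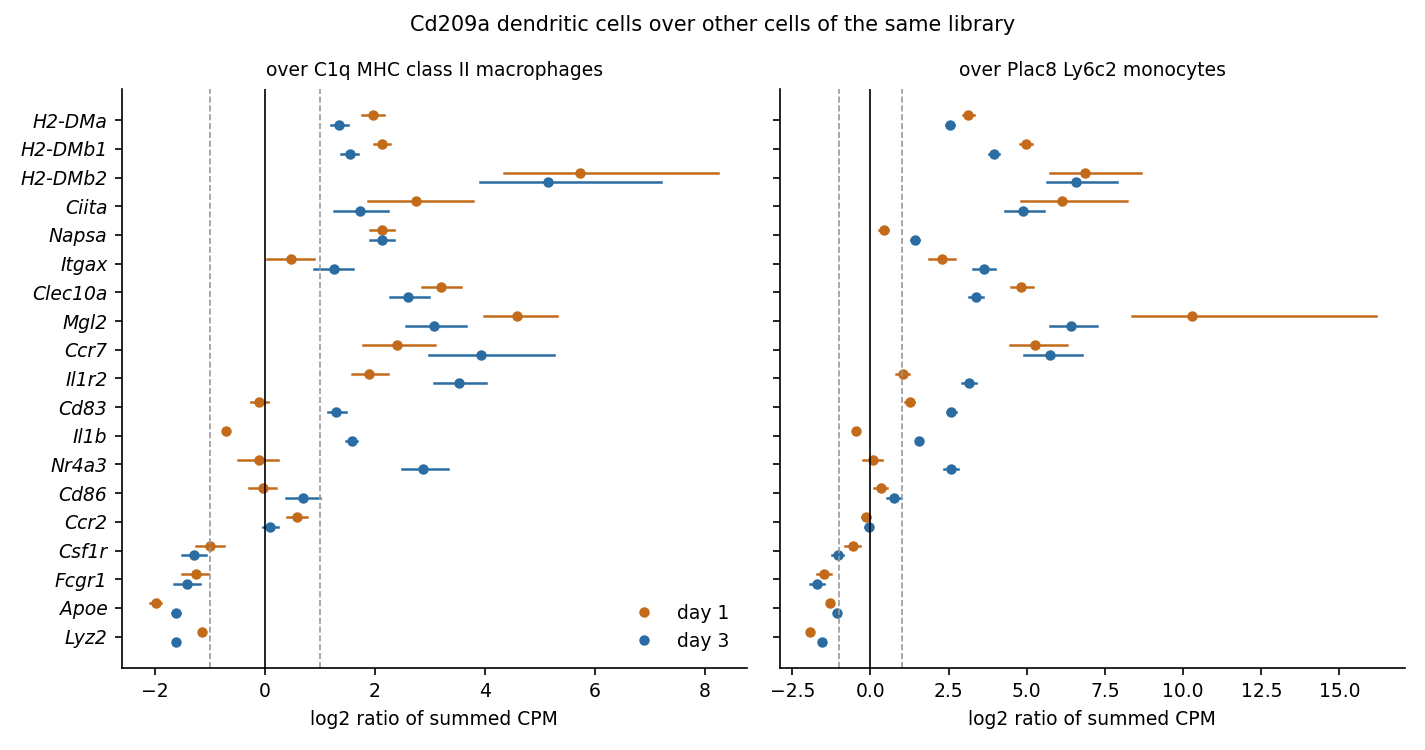
Log2 ratio of summed CPM (x axis) of members over C1q macrophages and over *Plac8* *Ly6c2* monocytes for 19 genes, with 1 point per library and its exact 95% counting interval as a line; dashed lines mark 2-fold. Class II loading genes lie right of 0 on both days, *Apoe* and *Lyz2* lie left, and *Il1b* and *Nr4a3* lie near or left of 0 on day 1 and right of it on day 3.

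Against all other kept cells, 2.56% of 11856 genes were higher in members and 8.93% lower. The genes that stood out most, ranked by the smaller of the ratios of both libraries, were *Klrd1*, *H2-DMb2*, *Klrb1b*, *P2ry10*, *Mgl2*, *Ciita*, *Cd7*, *Gpr171*, *Clec10a*, *H2-DMb1*, *Wnt11*, *Klrk1*, *Pkp3*, *Bcl11a* and *Padi2*. Several of these are better known from lymphocytes. *Klrb1b* encodes an inhibitory NK receptor and had log2 ratios of 5.71 and 5.67. *P2ry10*, a lysophospholipid receptor, had 5.26 and 5.5, and *Klrk1* had 5.41 and 3.9. All 7 conventional dendritic cell genes with enough UMIs were higher, and of 12 lipid and scavenging genes 7 were lower and 0 higher. T and NK cells, gated by their own genes, numbered 5 and 32. On day 3, 71.88% of them held a *Klrd1* UMI, 37.5% a *Cd7* UMI and 65.62% a *Klrk1* UMI, at a median depth of 3165 UMIs. *Klrb1b*, *P2ry10* and *Gpr171* were found in 28.12%, 31.25% and 25% of them. These genes were thus not particular to the members. Migratory dendritic cells numbered 7 and 3, too few for more than their count here.

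**Figure D3:**
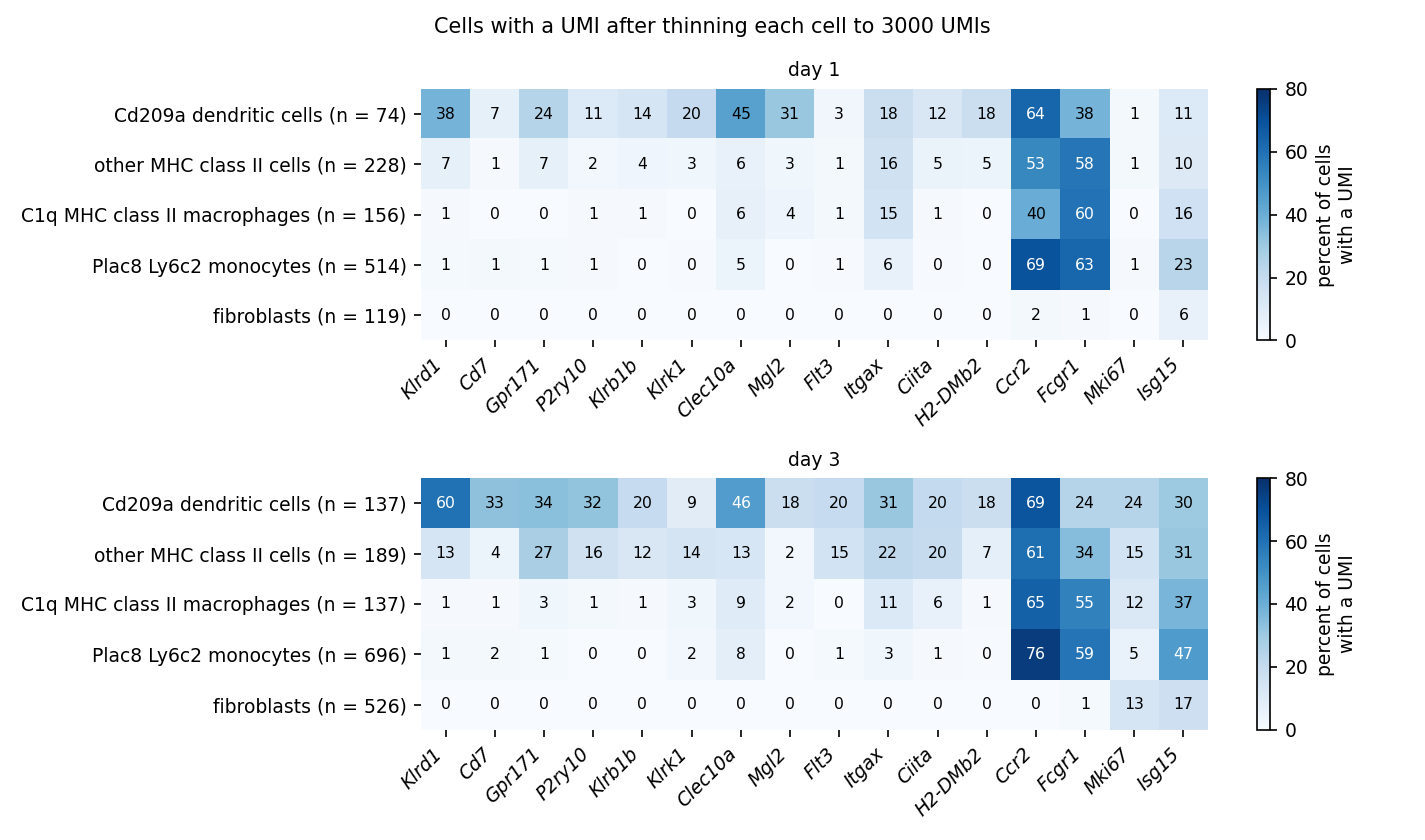
Percent of cells with at least 1 UMI of 16 genes after each cell was thinned to 3000 UMIs, by group and day, with the number of cells that reached that depth in each group beside its name. *Klrd1* is found in 37.84% and 59.85% of members and in at most 1.293% of C1q macrophages, monocytes and fibroblasts, while class II cells outside these groups lie between.

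Class II cells with neither *Cd209a* nor C1q at 0.1% numbered 234 and 193, and could hold members whose *Cd209a* was missed. *Klrd1* was detected in 9.402% of them on day 1 and 24.87% on day 3, at median depths of 11112 and 9207 UMIs. After thinning, 6.579% and 13.23% held a UMI, between the members and the C1q macrophages. *Flt3*, the receptor for the dendritic cell growth factor FLT3L, lay mostly outside the members, who held 9.524% of its UMIs in kept cells on day 1 and 39.93% on day 3.

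Between the days, 13.0% of the 5504 genes with at least 50 UMIs over both days were at least 2-fold higher in members on day 3 and 3.92% were at least 2-fold lower. The median log2 ratio of all these genes was 0.15. With that median taken off, the percentages were 10.5% and 5.61%. The shares below are to be read against these, and with 1 library per day a difference between days and a difference between libraries cannot be told apart.

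The class II machinery was nearly level between days. Of 9 genes outside the rule 2 were higher on day 3 and 0 lower, with a median log2 ratio of 0.09. *H2-DMa* was at 610 and 650 CPM, and the proteases and reductase that prepare class II and its peptides, *Ctss* (982.5 and 1302 CPM) and *Ifi30* (1817 and 1623 CPM), were within 2-fold. The genes higher on day 3 encode H2-O, the complex that restrains H2-M. *H2-Oa* was at 23.39 CPM (15.42 to 34.04) on day 1 and 81.79 CPM (68.48 to 96.93) on day 3, a log2 ratio of 1.78 (1.2 to 2.46). *H2-Ob* was at 7.798 and 50.42 CPM, a log2 ratio of 2.62 (1.7 to 3.87), with a UMI in 9.091% and 39.42% of cells. *Ciita* lay just under 2-fold, with 0.97 (0.5 to 1.48). Of 10 class I presentation genes 1 was higher, the peptide transporter *Tap1*, at 45.05 and 105.2 CPM, whose ratio of 1.21 was 0.96 on thinned cells.

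Of 6 conventional dendritic cell genes past the minimum 4 were higher on day 3 and 0 lower, with a median log2 ratio of 1.22. *Flt3* was at 8.664 CPM (4.155 to 15.93) on day 1 and 65.8 CPM (53.92 to 79.51) on day 3, a log2 ratio of 2.86 (1.99 to 4.03). It was detected in 9.091% and 48.18% of members, and after thinning in 2.703% and 19.71%. *Dpp4*, the surface protease CD26, was at 18.2 and 73.18 CPM (log2 ratio 1.98), and *Kmo*, an enzyme of tryptophan breakdown, at 19.93 and 54.73 CPM (log2 ratio 1.43). *Bcl11a*, a transcription factor of dendritic cell development, sat at the limit with 1.0 (0.43 to 1.63) and lost its call under 7 of the alternatives tried. *Itgax* (0.8) and *Napsa* (-0.04) stayed within 2-fold.

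Genes of type 2 cells were mixed, with 2 of 10 higher, 1 lower and a median log2 ratio of -0.41. *Clec4b1*, a lectin of this branch, was at 77.98 and 172.8 CPM (log2 ratio 1.14, and 0.65 without the members that held at least 10 cell cycle UMIs). *Ltb*, lymphotoxin beta, was at 10.4 and 30.13 CPM, but 1 cell of day 1 held 58.33% of its UMIs. *Cd209d*, a relative of *Cd209a*, was lower at 56.32 and 15.99 CPM. *Clec10a* (-0.41) and *Mgl2* (-0.79) stayed within 2-fold.

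*Cd7*, a surface protein of T cells, NK cells and lymphoid progenitors, had the largest day ratio among the leading genes named above. It was found in 13 of 77 members (16.88%) on day 1 and in 57 of 137 (41.61%) on day 3, and after thinning in 6.757% and 32.85%. Its level was 43.32 and 267.5 CPM, a log2 ratio of 2.61 (2.2 to 3.08). In C1q macrophages 0 of 160 and 1 of 141 cells held a *Cd7* UMI, and in monocytes 1.727% and 2.143%. *Cd7* lies at chr11:121036747-121039418 on the minus strand. Other genes of the same leading group differed less between days, with *P2ry10* at 52.85 and 110.1 CPM, *Gpr171* at 86.64 and 134.1 CPM and *Klrb1b* at 58.92 and 76.87 CPM.

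Members with a *Cd7* UMI differed from the others on both days, in the same direction for each gene given here except *Clec10a*. They had more *Klrd1* (702.4 against 173.2 CPM on day 1, 612.6 against 246.6 CPM on day 3), and more *Flt3* (41.73 against 3.959 CPM, 105.9 against 38.34 CPM). The day 1 values of *Flt3* rest on 6 UMIs in 4 cells against 4 UMIs in 3 cells. *Plac8* was at 785.9 against 203.9 CPM and 927.3 against 297.4 CPM, and *Tcf4*, a transcription factor shared with plasmacytoid cells, at 139.1 against 73.24 CPM and 287.4 against 109.8 CPM. *Mgl2* was nearly absent from them, at 13.91 against 291 CPM on day 1 and 9.076 against 243.5 CPM on day 3. The 13.91 CPM are 2 UMIs, under the floor of 3 counts, which is 20.86 CPM in those 13 cells. *Lyz2* was lower too, at 1099 against 4447 CPM and 2216 against 3979 CPM. *Napsa* was higher in them on both days, whereas *Clec10a* was at 549.4 against 311.8 CPM on day 1 and 161.9 against 322.2 CPM on day 3. The cells with a *Cd7* UMI were no deeper than the others, with medians of 11267 against 13256 UMIs and 8441 against 9389 UMIs. This division was drawn after the values had been seen and is a description.

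A minority of members carried C1q transcripts, while other macrophage genes were found more widely. *Fcgr1*, which encodes CD64, had a UMI in 63.64% of members on day 1 and 48.91% on day 3. Among members with C1q under 0.1% of UMIs these shares were 56.25% and 44.35%. C1q genes took at least 0.1% of the UMIs in 13 members of day 1 and 13 of day 3, no C1q UMI was found in 54 and 91, and 3 and 4 cells lay between 0.05% and 0.2%. Their levels of *Cd209a* were 333.9 against 945.1 CPM in the other members on day 1 and 401.2 against 935.4 CPM on day 3. *Klrd1* was at 137.3 against 270.2 CPM and 120.9 against 467.7 CPM. *Adgre1*, which encodes F4/80, was at 244.8 against 26 CPM and 339.2 against 55.94 CPM. *Apoe* was at 2719 against 356.1 CPM and 5519 against 136 CPM. These cells were deeper, with medians of 17735 against 11487 UMIs and 26466 against 8446 UMIs. Scrublet scores doublets, and the cells of highest score, 5.895% and 5.317% of the kept cells and 5.195% and 5.109% of the members, were marked. Among the marked were 2 of 13 and 5 of 13 of the C1q-bearing cells, and 2 of 64 and 2 of 124 of the others. Whether they are 2 cells under 1 barcode was not tested further, and they were kept.

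**Figure D4:**
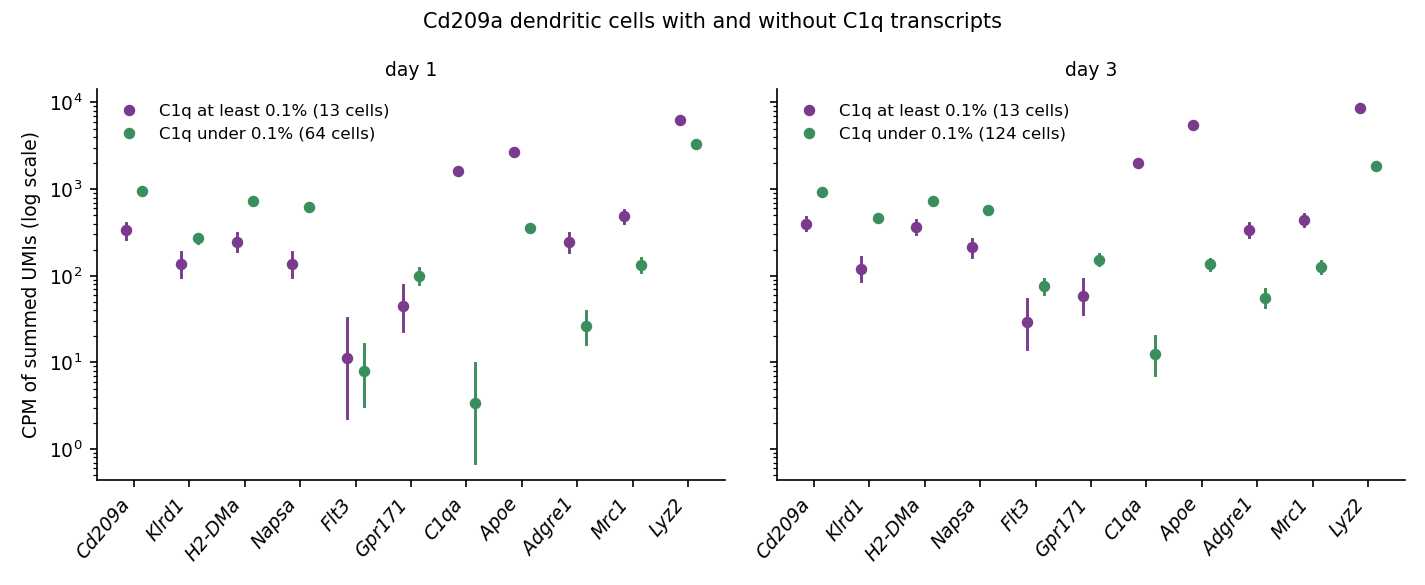
CPM of summed UMIs on a log scale for 11 genes in members with C1q at 0.1% of UMIs or more and in the remaining members, by day, with exact 95% Poisson intervals as lines. The C1q-bearing cells (13 on each day) lie lower for *Cd209a*, *Klrd1*, *H2-DMa* and *Napsa* and higher for *Apoe*, *Adgre1*, *Mrc1* and *Lyz2* on both days; *C1qa* was used to divide the cells.

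Members with exactly 1 *Cd209a* UMI held the most *C1qa* on both days. With exactly 1, with 2 to 3, with 4 to 7 and with 8 or more *Cd209a* UMIs, *C1qa* was at 1119, 502.8, 222.1 and 82.78 CPM on day 1, and at 740.1, 500.7, 79.08 and 403.6 CPM on day 3. *Klrd1* was at 171.7, 152.1, 451.1 and 258.2 CPM on day 1 and at 175.7, 459.9, 419.1 and 446.9 CPM on day 3. *Clec10a* was highest in the cells with 8 or more on both days, at 597.2 and 347.9 CPM. The median depth of these bins lay between 11992 and 14176 UMIs on day 1 and between 7895 and 9302 UMIs on day 3. By *Klrd1* itself, members with a UMI had less *Lyz2* than those without, 2188 against 6601 CPM and 2454 against 6127 CPM, and more *Gpr171*, 139.8 against 12.46 CPM and 153.8 against 64.26 CPM.

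Cell cycle genes stood higher on day 3. Of 12 past the minimum 11 were higher on day 3, with a median log2 ratio of 4.52 when the 4 genes with no UMI on day 1 are set at their lower bounds. *Mki67*, a proliferation marker, was at 2.599 CPM on day 1 and 139 CPM (121.4 to 158.3) on day 3, and *Top2a*, a topoisomerase of dividing cells, at 2.599 and 150.7 CPM. *Pclaf*, a replication factor, had no UMI on day 1 and was at 137.1 CPM on day 3, at least 52.8-fold higher than 3 counts over the day 1 members would give. At least 10 UMIs of the listed genes were held by 3 members of day 1 (3.896%) and 36 of day 3, or 26.28% (19.13 to 34.48), and 9 and 21 members lay between 5 and 14 UMIs. After thinning, at least 5 such UMIs were found in 0 of 74 members on day 1, which allows a share of up to 4.05% by the limit of 3 counts and 4.863% by Clopper-Pearson, and in 27 of 137 on day 3 (19.71%). The same measure was 18.25% in C1q macrophages, 7.184% in monocytes and 22.97% in all other kept cells of day 3, so it was not particular to the members. The 36 cells had lower *Klrd1* than the other members of day 3, 154.4 against 577.4 CPM, and lower *Cd7*, 101.5 against 392.8 CPM. Their *C1qa* was higher, 800.5 against 151.1 CPM, at medians of 16238 against 8097 UMIs. Among the 36, 5 (13.89%) were marked for a high Scrublet score, against 7 of all 137 members of day 3.

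All 11 type I interferon response genes past the minimum were higher on day 3, with a median log2 ratio of 2.39. *Isg15*, a ubiquitin-like protein induced by interferon, was at 38.12 CPM (27.7 to 51.18) on day 1 and 196.8 CPM (175.8 to 219.6) on day 3, and its thinned share of cells was 10.81% and 29.93%. The transcription factor *Irf7* was at 24.26 and 129.1 CPM, a log2 ratio of 2.39. *Rsad2*, the antiviral protein viperin, was at 2.599 and 70.72 CPM. *Cxcl10*, a chemokine for activated T cells, was at 24.26 and 139.6 CPM. The day ratio was larger in members than in C1q macrophages for 8 of these 11 genes and larger than in monocytes for 9, with medians of 1.99 and 1.62 in those groups. For *Isg15* it was 2.35 in members and 1.19 in each of those groups, while for *Ifit3*, another interferon-induced gene, it was 3.61 in members and 3.66 in monocytes. These differences were not tested. Both of those groups had higher *Isg15* shares than the members on each day in the plot of thinned shares.

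Of 13 pro-inflammatory cytokine and chemokine genes 8 were lower on day 3 and 2 higher, with a median log2 ratio of -1.35. *Il1b* was at 3899 CPM on day 1 and 1577 CPM on day 3, a log2 ratio of -1.31 (-1.38 to -1.24), and it was detected in 88.31% and 79.56% of members. As a mean of the cells' own CPM the log2 ratio of *Il1b* was -0.84. It was -0.97 without all doubted members, those with C1q at 0.1%, RNA of other types or a high Scrublet score, an alternative chosen after seeing the data. In C1q macrophages and monocytes its log2 ratio was -3.59 and -3.33. *Cxcl2*, a neutrophil attractant, was at 5861 and 1382 CPM, and *Cxcl3* at 739.9 and 9.839 CPM. The monocyte attractants *Ccl2* (715.7 and 162.3 CPM) and *Ccl7* (694.9 and 142.7 CPM) were lower on day 3. *Ccl4*, a chemokine for monocytes and T cells, was higher, at 274.7 and 741.6 CPM, and *Il18* was at 4.332 and 36.9 CPM. Free RNA in barcodes with at most 100 UMIs held *Il1b* at 6611 and 330.7 CPM and *Cxcl2* at 18238 and 2005 CPM. The share of free RNA, estimated from fibroblast genes, was 1.939% and 1.101% of UMIs in the 76 and 130 members that carried little fibroblast RNA, and 14.46% and 34.91% over all members. The smaller shares correspond to 3.29% and 0.231% of the *Il1b* level and to 21.4% and 52.7% of that of *S100a8*, a neutrophil gene. The larger shares correspond to 24.5% and 7.32% of the *Il1b* level, and would bring more *S100a8* than was measured in members on either day.

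Other chemokines were divided, with 5 of 9 lower and 1 higher and a median log2 ratio of -1.81, while without the C1q-bearing members 2 of 6 were lower and the median was -0.29. *Ccl6* was at 2032 and 262 CPM, and *Ccl9* at 1442 and 404 CPM. *Ccl17*, which attracts CCR4-bearing T cells, was at 73.65 and 49.19 CPM, from 14 cells of day 1 and 2 of day 3, with 57.65% and 51.25% of its UMIs in 1 cell. *Ccl24* had 89 UMIs in 9 cells on day 1 and none on day 3, so it was at least 41.8-fold higher on day 1 than 3 counts on day 3 would give.

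Of 8 costimulation and checkpoint genes 1 was higher on day 3, *Havcr2*, which encodes TIM-3, at 18.2 and 57.19 CPM. *Cd86* was at 179.4 and 125.4 CPM, *Cd80* at 65.85 and 36.9 CPM and *Cd40* at 19.06 and 25.83 CPM. *Il12b*, the shared chain of interleukin-12 and interleukin-23, had no UMI on either day. *Nr4a3* was higher on day 3, at 85.78 and 219.5 CPM, a log2 ratio of 1.35 (1.03 to 1.69). *Cd83* (455.7 and 536.2 CPM) and *Ccr7* (71.05 and 65.8 CPM) were nearly level. *Cx3cr1*, the fractalkine receptor, was higher on day 3, at 28.59 and 82.4 CPM.

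Heat shock chaperones were higher on day 3 in 4 of 7, with 0 lower and a median log2 ratio of 1.52. *Hspa1b* was at 527.7 CPM on day 1 and 2364 CPM on day 3, its near copy *Hspa1a* at 544.1 and 1606 CPM, and *Dnajb1* at 62.38 and 373.3 CPM. Reads could be divided between the *Hspa1* copies, so their split is uncertain. Of 14 NF-kB and immediate early genes 4 were higher and 2 lower. *Fosb* was at 136 and 662.9 CPM, *Egr1* at 43.32 and 223.8 CPM and *Atf3* at 137.8 and 535.6 CPM, while *Nfkbia*, the inhibitor of NF-kB, was at 2374 and 1175 CPM, with a ratio at the limit (-1.01) that lost its call under 9 alternatives. Such genes can also respond to tissue digestion, and the part of handling in these values was not tested.

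Genes of hypoxia and glycolysis were lower on day 3 in 5 of 11 and higher in 0, with a median log2 ratio of -0.98. *Hilpda*, a lipid droplet protein induced by hypoxia, was at 337.9 and 68.87 CPM, and the glycolytic enzyme *Eno1* at 638.6 and 196.8 CPM. Cholesterol synthesis genes were lower in 4 of 10 and higher in 0, with a median of -0.98, and in 8 of 10 without all doubted members. Among them was *Msmo1* at 147.3 and 45.51 CPM. *Arg1*, arginase, was at 209.7 CPM on day 1 in 16 cells and had 3 UMIs in 1 cell on day 3. *Cd14*, a coreceptor for endotoxin, was at 1773 and 317.9 CPM and was detected in 93.51% and 62.04% of members. Of 10 apoptosis and survival genes 4 were lower and 1 higher, with *Bcl2a1b*, a survival factor with near-identical copies, at 476.5 and 134.1 CPM.

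**Figure D5:**
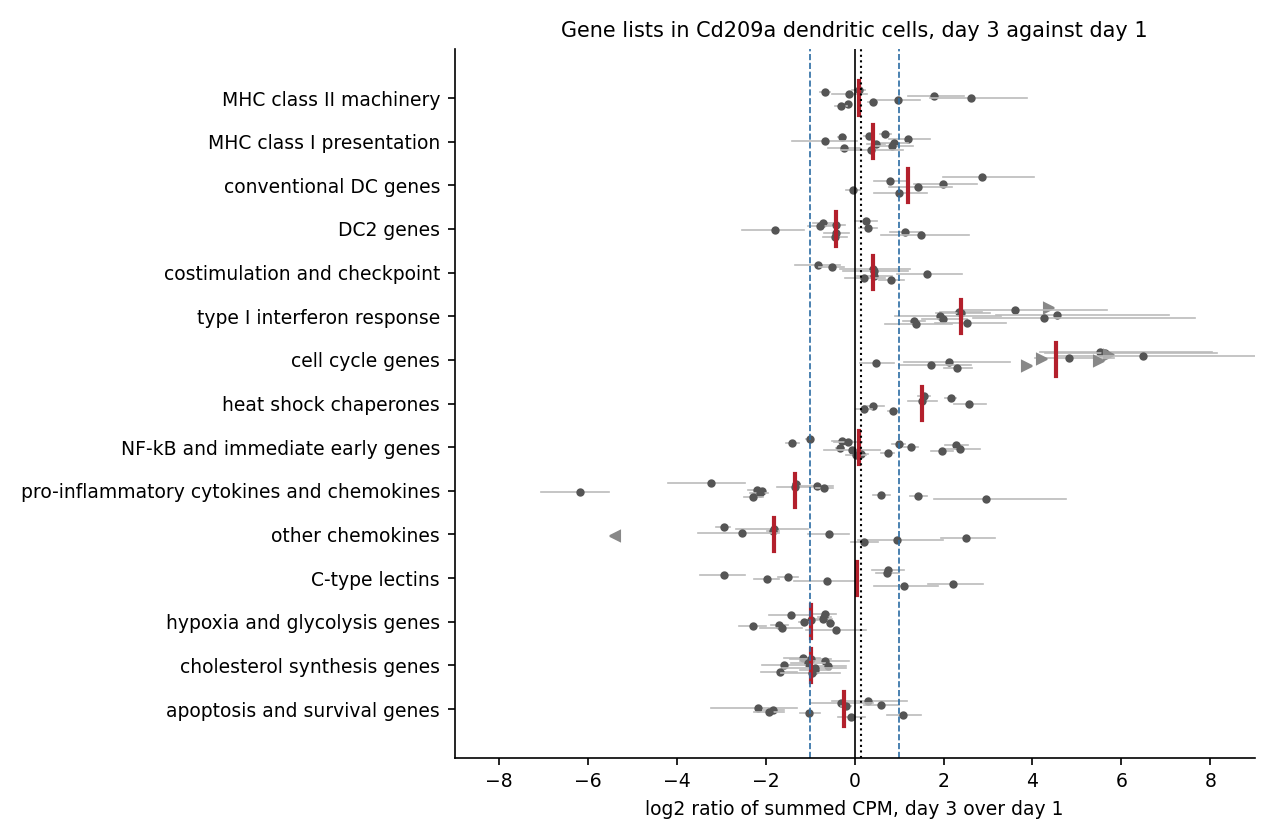
Log2 ratio of summed CPM, day 3 over day 1 (x axis), for the genes of 15 lists past the count minimum in members, with exact 95% counting intervals as grey lines and the median of each list as a red bar. Triangles stand at the lower bound of genes with no UMI on 1 day, the dotted line is the median of all 5504 genes (0.15) and dashed lines mark 2-fold; type I interferon, cell cycle and heat shock genes lie to the right, and pro-inflammatory, hypoxia and cholesterol genes mostly to the left.

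The 10 genes with the lowest day ratios among those with at least 100 UMIs were *Retnla*, *Arg1*, *Cxcl3*, *Ppbp*, *Slpi*, *Il1a*, *Cd163*, *Cxcl5*, *Pf4* and *Ccl6*. Several rested on few cells. *Retnla*, a secreted resistin-like protein, had 150 UMIs in 5 cells on day 1 and none on day 3. *Cxcl5*, another neutrophil attractant, was at 89.24 and 10.45 CPM, with 71.84% of its day 1 UMIs in 1 cell. *Cd163*, the haemoglobin scavenger receptor of resident macrophages, was at 99.64 and 10.45 CPM, and without the C1q-bearing members its log2 ratio had the other sign, 1.3. *Pf4*, platelet factor 4, was at 2136 and 273 CPM and was detected in 36.36% and 27.01% of members. At the other end, the 10 highest were *Pclaf*, *Ube2c*, *Sfrp2*, *Mgp*, *Birc5*, *Aspn*, *Top2a*, *Mki67*, *Gpnmb* and *Syngr1*, of which *Pclaf*, *Ube2c*, *Birc5*, *Top2a* and *Mki67* belong to the cell cycle list.

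RNA of other cells moved with the day. Of 8 neutrophil genes the 4 past the minimum were lower on day 3. *S100a8*, a chain of calprotectin, was at 370 and 13.53 CPM and *S100a9* at 416.8 and 4.919 CPM, and 2 members of day 1 held at least 0.5% of their UMIs from this pair. Of 5 fibroblast genes 4 were higher on day 3, with *Col3a1* at 38.12 and 789 CPM, and 6 members of day 3 held at least 0.2% fibroblast UMIs. Without the members that carried RNA of other types, *Col3a1* had a log2 ratio of -0.35 and *Dcn*, decorin, of -3.18, so the higher values rest on those cells. No fibroblast gene was then higher among the 2 past the minimum. Endothelial genes summed to 4.332 and 21.52 CPM and myogenic genes to 0 and 31.98 CPM. Among the 10 highest ratios were *Sfrp2* (0 and 94.7 CPM), *Mgp* (0.8664 and 121.8 CPM) and *Aspn* (0.8664 and 75.02 CPM), which fibroblasts express, and 1 cell of day 3 held 66.67% of *Mgp* and 65.57% of *Aspn* UMIs. *Gpnmb*, a macrophage gene, was at 4.332 and 168.5 CPM, with 47.45% of its day 3 UMIs in 1 cell.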

How the data were processed

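Single cells of injured WT quadriceps were measured in 2 libraries, day 1 and day 3, each from 5 pooled mice. What the authors deposited are raw counts of UMIs for each gene in every listed barcode, neither normalized nor restricted to cells. Per the submitters' processing notes these came from Cell Ranger 5.0.0 and mm10, while the file headers name Cell Ranger 4.

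The 7367 and 6640 barcodes of highest UMI total were called, then those with at least 1000 UMIs, at least 200 genes and at most 7.5% mitochondrial UMIs. Doublets were kept; an alternative left out the cells of highest Scrublet score, 0.8% per 1000 barcodes called. UMIs were summed over members per library. Log2 ratios had 0.5 added to each count and required 50 UMIs over both days, and a call is a ratio of at least 1 in size. Against other groups, 50 UMIs of both groups together in each library were required. Barcodes holding 100 UMIs or fewer gave the profile of free RNA, whose share was estimated from fibroblast genes in members holding under 0.2% of them, leaving out the one with the most. The log2 ratio with its interval and the thinning were tested on simulated Poisson counts. Such counts lack the unevenness between cells seen in members. The gates, the doublet scores and the estimate of free RNA were not simulated. Gene positions are those of GENCODE on GRCm38, and promoters come from RefSeq.

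The members, the 37 gene lists and the groups were chosen with earlier results of these data known. Genes named are those of the lists, the 10 highest and 10 lowest day ratios, and the 15 or 8 leading genes against other groups, each with at least 100 UMIs; *Cd7* was then followed up after its values were seen. Alternatives changed the call of cells, the limits of the rule, the doubted members, the summary, free RNA, centring, pseudocount and count minimum. Python 3.11.15, numpy 2.4.6, pandas 2.3.3, SciPy 1.17.1, Scanpy 1.11.5 and matplotlib 3.10.9 were used.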

Additional observations from a re-analysis of the deposited data

Results flagged for a closer look

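Among the genes named, 3 differed between days at least 2-fold in members and at least 2-fold the other way in C1q macrophages or monocytes of the same libraries, and these differences were not tested. *Nr4a3*, an immediate early nuclear receptor, had a log2 ratio of day 3 over day 1 of 1.35 in members, -1.64 in C1q macrophages and -1.14 in *Plac8* *Ly6c2* monocytes, and 33 members of day 1 and 95 of day 3 held a UMI of it. *Ccl8*, a monocyte attractant, had -1.81 in members and 3.09 in monocytes, but its 48 and 19 UMIs in members came from 3 and 6 cells, with 60.42% and 73.68% in 1 cell. *Dcn*, the matrix protein decorin, had 1.42 in members and -1.4 in C1q macrophages, and 6 members of day 3 held at least 0.2% fibroblast UMIs.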

How the results depend on the processing

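No paired analysis was possible because each day is 1 library from different mice. The share of members on day 1 was 1.519% under the other call of cells, and on day 3 it was 2.464% with at least 2 *Cd209a* UMIs and 2.474% with the rule on thinned cells. The percentage of genes at least 2-fold higher on day 3 was 6.78% at a minimum of 200 UMIs and 31.6% without a minimum, and of genes lower 9.34% without a minimum. The other alternatives left these shares and percentages within the limits set. The share of members with a *Klrd1* UMI lay between 60.27% and 71.7% on day 1 and between 79.17% and 84.91% on day 3.

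Day ratios of genes called at 2-fold changed sign under some alternatives. With a class II sum of at least 1%, *Ccl8* was at 0.09, *Cd163* at 1.96 and *Dcn* at -0.12. On thinned cells, *Ccl8* was at 2.44, *Cd163* at 3.52 and *Cxcl5* at 1.11. Without C1q-bearing members, *Cd163* was at 1.3 and *Spp1* at -1.02. Without members carrying RNA of other types, *Col1a1* was at -1.08, *Col1a2* at -0.91, *Col3a1* at -0.35 and *Dcn* at -3.18. An alternative without all doubted members, chosen after seeing the data, gave *Cd163* 1.4, *Col1a1* -0.65, *Col1a2* -0.98, *Col3a1* -0.7, *Dcn* -3.62 and *Spp1* -1.18. Another, without cycling members, gave *Spp1* -0.79 and *Top2a* -0.38, the latter because the cells were chosen by genes that include it. The cause of the other changes was not tested. Of 3682 gene values under alternatives, 20 changed sign in genes called at 2-fold. Of the rest, 3029 stayed within their counting interval and 633 moved beyond it. Changes of sign in genes that were not called are not counted apart.

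Depth limits the rarer genes: 3 counts over the members are 2.599 CPM on day 1 and 1.845 CPM on day 3, and with 77 and 137 cells a gene in few cells can rest on 1 of them.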

Other observations

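Among receptors and sensors not described above, the C-type lectins were divided, with 2 of 8 higher on day 3 and 3 lower, and 4 of 7 higher without all doubted members. *Clec12a*, an inhibitory lectin of myeloid cells, was at 22.53 CPM on day 1 and 106.4 CPM on day 3, a log2 ratio of 2.22, while *Clec4d*, *Clec4n* and *Clec4e*, lectins that bind microbial glycans and dead cells, had -2.95, -1.97 and -1.49, the last of these -0.96 without all doubted members. Of 7 chemokine receptors 1 was higher and 1 lower, *Cx3cr1* and *Ccr1*, the latter at 264.3 and 99 CPM with a ratio of -1.41, or -0.97 without all doubted members. Of 17 transcription factors of dendritic and myeloid cells 3 were higher and 1 lower, and 1 higher after centring on the median. *Cebpb*, a factor of myeloid activation, was the lower one, at 2119 and 641.4 CPM, *Tcf4* was at 81.44 and 182 CPM, and *Klf4*, needed by a subset of type 2 cells, was nearly level at 271.2 and 332.1 CPM. Of 11 macrophage genes 1 was higher and 1 lower, with a median log2 ratio of 0.06, and without cycling members 4 of 11 were lower. *Siglech*, a lectin of plasmacytoid dendritic cells, was at 0.8664 and 13.53 CPM, below the minimum for a ratio.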
